A study of Mus musculus with 2 samples.

Results

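S100 genes encode small calcium-binding proteins with paired EF-hand loops, and 8 of them were followed here across the myeloid cells of the mouse cerebral cortex: S100a1, S100a4, S100a6, S100a8, S100a9, S100a10, S100a11 and S100a13. They were taken by symbol from the 55357 gene rows of the count matrices, in which 12 further rows carry an S100 symbol. The cells were sorted as CD45+CD11b+, 2 surface proteins shared by microglia and other myeloid cells, and sequenced by droplet 3′ tag counting in 2 libraries. One library came from Msn knockout mice, which lack moesin, a linker of the plasma membrane to cortical actin, and the other from wild-type mice. Mice of both genotypes were 8 weeks old, and the cortices of 5 to 6 animals were pooled per genotype. The labels name C57BL/6 for the knockout animals alone. They say nothing of the wild-type strain, of sex, or of which part of Msn was deleted. The study asked what the loss of moesin does to cortical microglia. With 1 pooled library per genotype no difference has a replicate check, genotype and library cannot be told apart, and no test was made.

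Most S100 proteins are pairs of identical or related chains that change shape when calcium binds and then grip a target protein. S100A8 and S100A9 combine into calprotectin, the main cytosolic protein of neutrophils, which sequesters zinc and manganese ions and, once released, is sensed by TLR4 and by the receptor RAGE (gene Ager). S100A4, S100A6, S100A10 and S100A11 act at the cell cortex and membrane, where they bind non-muscle myosin or annexins, and circulating myeloid cells are known to carry more of them than resting microglia do.

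All 8 genes lay on chromosome 3 within 3.06 Mb (GRCm39), in 1 block from S100a13 to S100a9 and a second block with S100a11 and S100a10. S100a8 (positions 90567118 to 90578128, plus strand) and S100a9 (90599931 to 90603071, minus strand) were 21802 bases apart with no other S100 gene between them. S100a4 (90511074 to 90513354) and S100a6 (90520140 to 90535843) had only S100a5 between them, and S100a11 (93414382 to 93435293) lay 26919 bases before S100a10 (93462213 to 93474510), all on the plus strand. S100a1 (90418340 to 90421848, minus strand) lies wholly inside S100a13 (90416091 to 90431912, plus strand). No source used here says whether reads were counted by strand, so the counts of S100a1 and S100a13 may share reads and are uncertain in that respect.

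The upstream sequences of the 2 pairs whose levels ran most alike over the classes (S100a8 with S100a9, S100a6 with S100a11, described further on) are printed to show what each pair has and does not have in common. Each is the 250 bases before the start of the GENCODE canonical transcript, 5′ to 3′ on the strand of the gene, at chr3:90576035-90576284 (S100a8, plus), chr3:90603072-90603321 (S100a9, minus), chr3:90519890-90520139 (S100a6, plus) and chr3:93427427-93427676 (S100a11, plus). Capitals mark the motif matches found.
S100a8: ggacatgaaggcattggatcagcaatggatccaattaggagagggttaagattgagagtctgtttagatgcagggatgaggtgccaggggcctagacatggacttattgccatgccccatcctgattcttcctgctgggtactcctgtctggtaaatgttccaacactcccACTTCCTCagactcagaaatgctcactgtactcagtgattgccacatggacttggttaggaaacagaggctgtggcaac
S100a9: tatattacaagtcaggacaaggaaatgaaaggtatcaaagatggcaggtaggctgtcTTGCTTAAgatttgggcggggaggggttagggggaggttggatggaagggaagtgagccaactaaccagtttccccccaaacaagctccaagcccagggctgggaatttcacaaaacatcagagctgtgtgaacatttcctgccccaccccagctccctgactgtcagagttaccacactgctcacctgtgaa
S100a6: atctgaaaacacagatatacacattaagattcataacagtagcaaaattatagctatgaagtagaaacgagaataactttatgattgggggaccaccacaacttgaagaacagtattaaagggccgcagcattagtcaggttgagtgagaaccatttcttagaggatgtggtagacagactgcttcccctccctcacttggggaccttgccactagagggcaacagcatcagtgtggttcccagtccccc
S100a11: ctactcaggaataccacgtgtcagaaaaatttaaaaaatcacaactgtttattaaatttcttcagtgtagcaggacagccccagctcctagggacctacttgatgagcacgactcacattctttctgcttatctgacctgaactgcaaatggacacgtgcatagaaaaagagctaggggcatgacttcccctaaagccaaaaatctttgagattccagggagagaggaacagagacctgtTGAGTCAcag
Motifs of 3 factors and the TATA box were searched on both strands. The letters were TTGCNNAA for C/EBP and GAGGAAGT for PU.1, a factor of the myeloid lineage. For AP-1 the letters searched were TGANTCA, where N is any base. For the TATA box, which fixes the start of many tightly controlled genes, they were TATAAA. S100a8 held the PU.1 letters on the minus strand, 79 to 72 bases before the start, and S100a9 held the C/EBP letters 193 to 186 bases before it. S100a11 held the AP-1 letters 10 to 4 bases before its start, and the S100a6 stretch held none of these. Neither pair shared a match. Over 21627 promoters of the same length, the C/EBP letters occurred in 9.37%, PU.1 in 2.09%, AP-1 in 6.19% and TATA in 11.9%, and a match is only a description of the letters. Of the other members, only S100a4 held a match, TATAAA 29 to 24 bases before its start.

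The knockout library held 9038 barcodes and 67575835 UMIs (unique molecular identifiers, 1 per captured RNA molecule), and the wild-type library 5842 barcodes and 68576464 UMIs. Barcodes with 500 or more genes and at most 10% mitochondrial UMIs were kept, 7573 and 5577. Cells were then gated on 2 marker genes per class, except neutrophils, which were gated on Retnlg alone. Knockout and wild-type cells numbered 4638 and 5028 microglia, 465 and 31 patrolling monocytes, 116 and 24 classical monocytes, 161 and 35 border macrophages, 68 and 0 natural killer (NK) cells, and 26 and 3 neutrophils. Each class had at least 1 UMI of every gene on its own marker list, except the 3 wild-type neutrophils, in which Camp, Ltf and Ngp were at 0. The gate genes on these lists were detected by definition. Msn itself stood at 20.6 CPM (UMIs of the gene per 1000000 UMIs of the class) in knockout and 321 CPM in wild-type microglia, at 57.8 and 1195 CPM in patrolling monocytes, at 40.2 and 569 CPM in classical monocytes and at 13.4 and 228 CPM in border macrophages. Classes also held RNA of other lists. Knockout and wild-type border macrophages had 4669 and 3233 CPM of the microglial list, beside 8652 and 10127.5 CPM of their own. Patrolling monocytes had 3258 and 2883 CPM of the classical monocyte list, beside 4132 and 3932 CPM of their own. The libraries shared 13 barcode sequences. Cells with a non-microglial gate but microglial RNA above a set limit were left out of every class; they numbered 797 in the knockout and 213 in the wild-type library, with medians of 15087 and 24078 UMIs.

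S100a8 and S100a9 RNA was a neutrophil signal. In the 26 knockout neutrophils S100a8 reached 131783 CPM (129504 to 134092; exact Poisson interval at 95%, here and below for levels) and S100a9 reached 156070 CPM (153589 to 158581). The 3 wild-type neutrophils gave 89658 and 112277 CPM, too few cells for a comparison. In every other class of either library both genes stood under 55 CPM. Together the pair took a median of 27.5% of all UMIs of a knockout neutrophil, from 0 to 43.6% over the 26 cells, of which 25 carried both. In the 3 wild-type neutrophils the pair took 12.2%, 18.6% and 28.5%. Intervals of levels and shares cover counting error only, and PCR copies are already collapsed by the UMIs.

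In the neutrophil class S100a8 had fewer UMIs than S100a9 in both libraries, with only 3 wild-type cells. S100a8 made up 45.8% of the UMIs of the pair in knockout neutrophils (45.2 to 46.4, exact binomial) and 44.4% in wild-type neutrophils (41.8 to 47.0), with overlapping intervals. Cells of the neutrophil gate left out for microglial RNA differed. The 3 such wild-type cells held 2202 UMIs of S100a8 and 1486 of S100a9, and the 25 such knockout cells 3581 and 3817. The wild-type ratio thus depends on which few cells are counted. Outside neutrophils S100a8 made up 44.2% in knockout microglia (40.8 to 47.7, 807 UMIs) and 47.2% in wild-type microglia (42.3 to 52.0, 422 UMIs), where the pair was at low level. The wild-type microglial share rests largely on the highest cell, with 102 of 199 S100a8 UMIs and 126 of 223 S100a9 UMIs. Knockout classical monocytes were the class that stood apart, with 88.2% (78.1 to 94.8), from 60 UMIs of S100a8 and 8 of S100a9. Of those 60 UMIs, 27 lay in 1 cell.

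**Figure D1:**
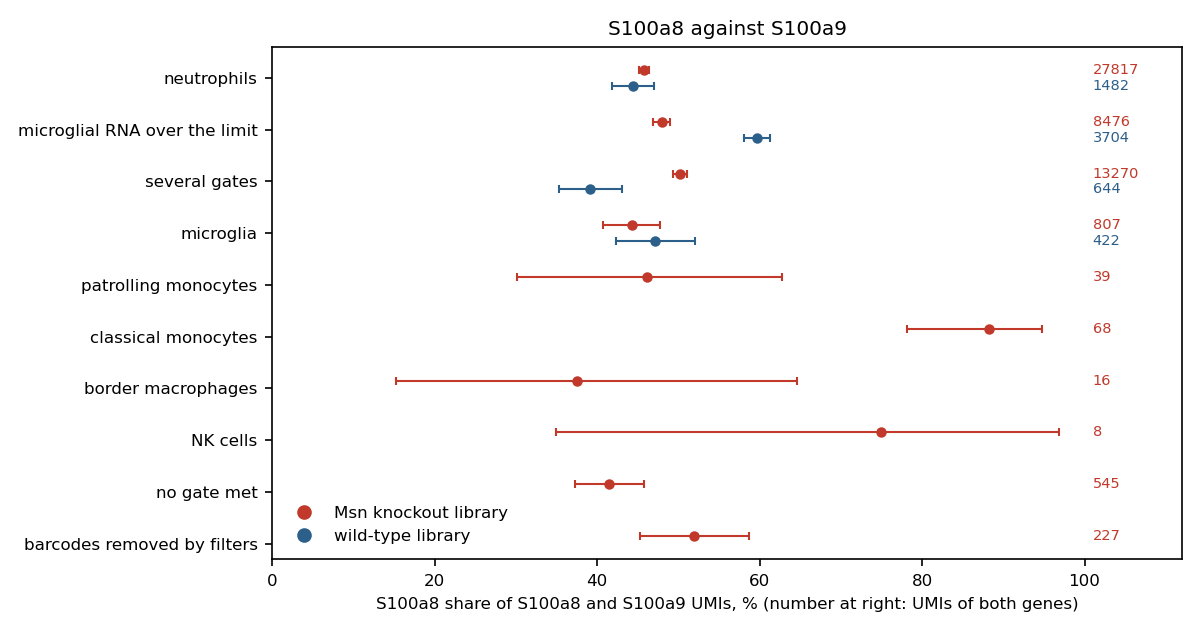
S100a8 as a percentage of the UMIs of S100a8 and S100a9 together, by class, in the knockout (red) and wild-type (blue) library, with exact 95% binomial intervals and the number of UMIs of both genes at the right. Neutrophils and microglia of both libraries lie between 44.2% and 47.2%, and knockout classical monocytes at 88.2%. The wild-type neutrophils are 3 cells.

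Monocytes carried little calprotectin RNA. Wild-type monocytes had 0 UMIs of either gene, with an upper limit of the interval of 19.95 CPM in patrolling and 15.1 CPM in classical monocytes. In knockout patrolling monocytes S100a8 stood at 7.13 CPM and S100a9 at 8.32 CPM, and in knockout classical monocytes at 54.8 and 7.30 CPM. A UMI of S100a8 was found in 16.4% of 116 knockout classical monocytes (median 8823 UMIs) and in 5.15% of 4638 knockout microglia (median 5615 UMIs). With every cell thinned to 1000 UMIs the shares were 0.862% and 1.13%, where the monocyte share rests on 1 cell. The level and the thinned share gave opposite orders of the classes, and no order is read from them. Without the 10 highest cells of each class S100a8 stood at 9.05 CPM in knockout classical monocytes and 6.73 CPM in knockout microglia.

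S100a6 was high in neutrophils, monocytes and NK cells and low in microglia. It stood at 9769 CPM in knockout neutrophils (9155 to 10412), 5091 CPM in classical monocytes (4958 to 5226), 2844 CPM in NK cells and 1470.3 CPM in patrolling monocytes of the knockout library, but at 72.7 CPM in border macrophages and 29.9 CPM in microglia. The wild-type library had the same order over the 4 classes with 20 or more cells: 3526 CPM in classical monocytes, 844 CPM in patrolling monocytes, 11.4 CPM in border macrophages and 2.31 CPM in microglia. No 2 neighbours in the knockout order had overlapping intervals. At 1000 UMIs per cell, 96.6% of knockout and 91.7% of wild-type classical monocytes had an S100a6 UMI, against 2.10% of knockout and 0.220% of wild-type microglia. S100A6, or calcyclin, binds annexins and the ubiquitin ligase adaptor CacyBP.

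S100a4 was a monocyte gene in these cells. S100A4, known as metastasin, binds non-muscle myosin heavy chain IIA and loosens its filaments. Its RNA stood at 1289 CPM (1223 to 1358) in knockout and 1278 CPM (1140 to 1428) in wild-type classical monocytes, and at 462 CPM (436 to 490) in knockout and 400 CPM (314 to 503) in wild-type patrolling monocytes. Microglia had 6.65 and 0.978 CPM, knockout border macrophages 8.90 CPM from 6 UMIs, and wild-type border macrophages 0 UMIs (interval up to 21.1 CPM). Neutrophils had 0 UMIs, with an interval up to 38.2 CPM in the knockout class, although the same cells were rich in S100a6. In NK cells S100a4 averaged 109 CPM, but 38 of its 39 UMIs lay in 10 of the 68 cells, so most NK cells showed none.

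S100a10 and S100a11 were both high in classical monocytes but parted in NK cells and neutrophils. S100A10 (p11), which has lost calcium binding and pairs with annexin A2, stood at 2339 CPM in NK cells, 1589 CPM in classical monocytes and 159 CPM in patrolling monocytes of the knockout library, against 62.1 CPM (22.8 to 135) in neutrophils. In the wild-type library it was 1053 CPM in classical and 37.9 CPM in patrolling monocytes. S100A11, a partner of annexin A1, instead reached 3756 CPM in knockout neutrophils and 819 CPM in classical monocytes of both libraries. NK cells of the knockout library had 477 CPM of S100a11, and patrolling monocytes had 206 CPM in the knockout and 222 CPM in the wild-type library. Every knockout NK cell carried an S100a10 UMI (68 of 68), whereas 2 of 26 knockout neutrophils did. Conversely 26 of 26 knockout neutrophils carried S100a11.

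S100a13 and S100a1 had a flatter spread. S100A13 takes part in the release of FGF1 and interleukin 1α, 2 proteins without a signal peptide. In the knockout library its RNA was 588 CPM in NK cells, 255 CPM in patrolling and 248 CPM in classical monocytes, 107 CPM in border macrophages, 59.5 CPM in microglia and 51.7 CPM in neutrophils. The intervals of the 2 monocyte classes overlapped (236 to 276 and 220 to 280 CPM), as did those of microglia and neutrophils. The wild-type values were 180.2 CPM in classical and 119 CPM in patrolling monocytes, 131 CPM in border macrophages and 39.4 CPM in microglia. Microglia held 38.9% of all S100a13 UMIs of kept knockout cells and 84.4% of those of wild-type cells, against 5.16% and 6.99% for S100a6. S100a1, best known from heart muscle for acting on calcium release, ranged in the knockout library from 78.1 CPM in NK cells and 69.8 CPM in border macrophages down to 9.47 CPM in microglia, with 0 UMIs in neutrophils. In the wild-type library it was 34.3 CPM in border macrophages and 6.68 CPM in microglia.

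**Figure D2:**
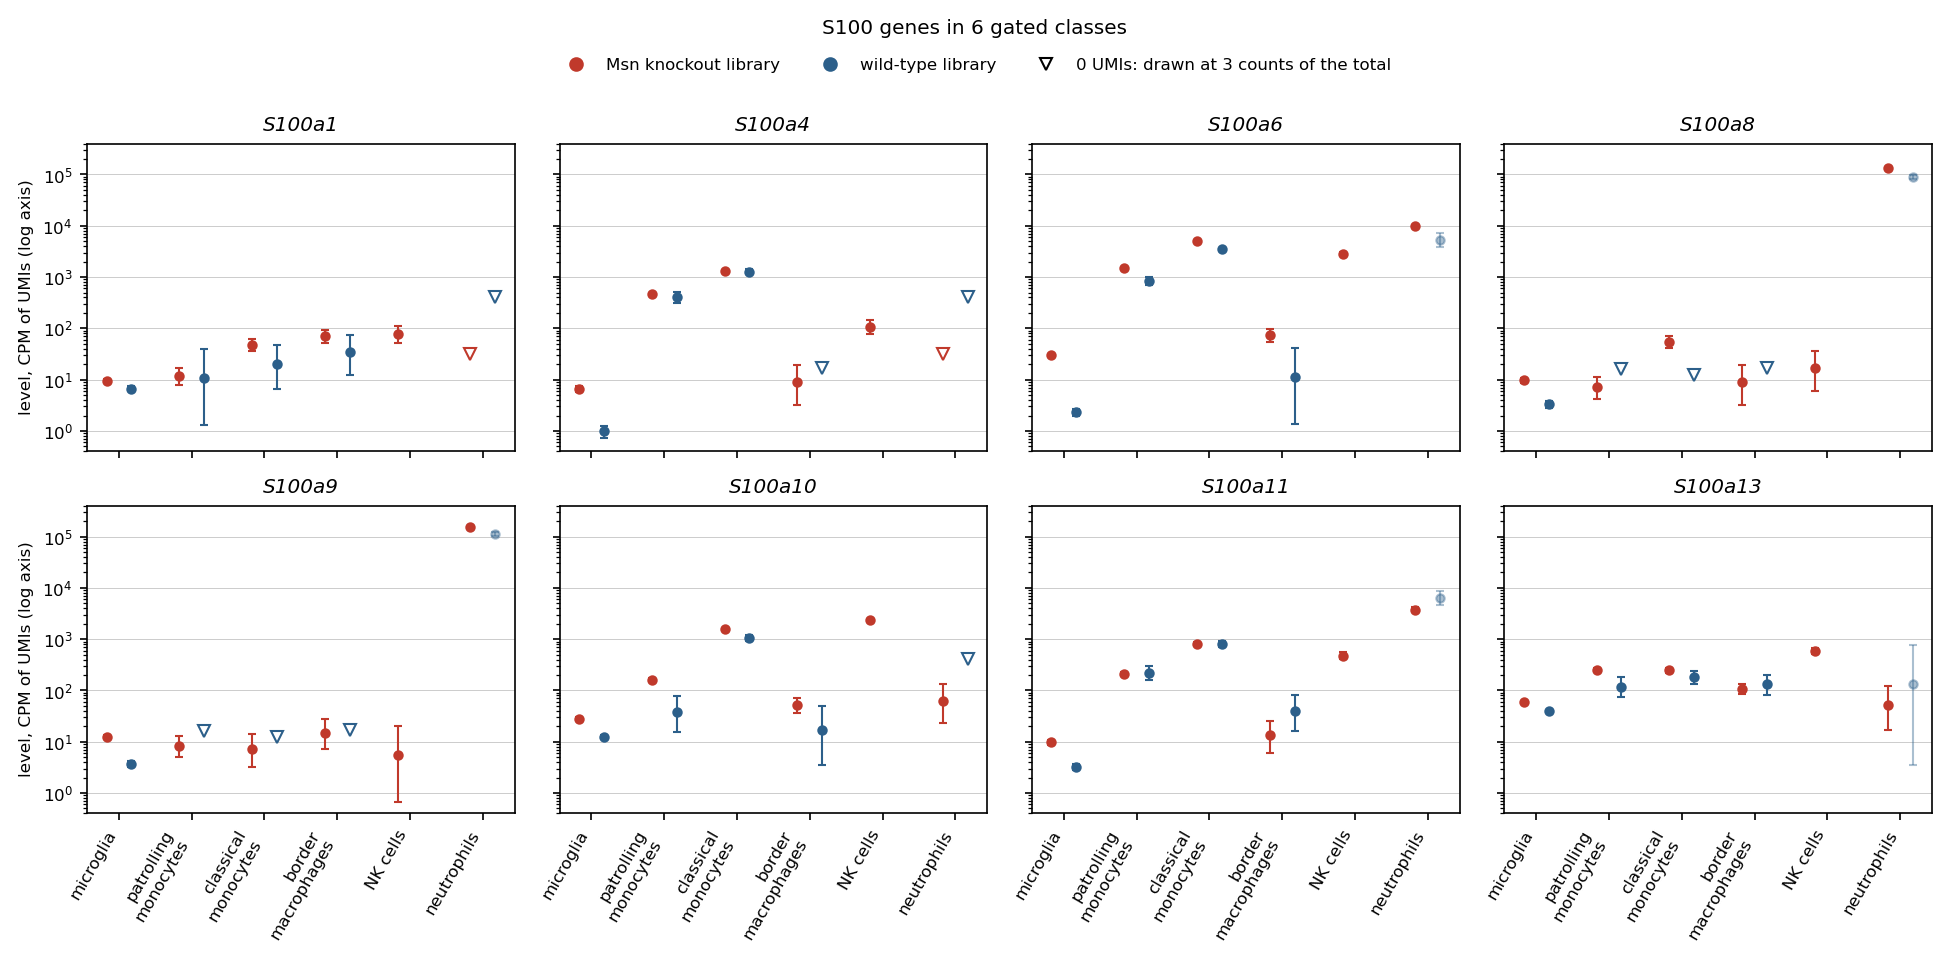
Level of each S100 gene (CPM of summed UMIs, log axis) in 6 gated classes of the knockout (red) and wild-type (blue) library, with exact 95% Poisson intervals; open triangles mark 0 UMIs, drawn at 3 counts, and pale points are the 3 wild-type neutrophils. S100a8 and S100a9 stand at 89658 CPM or more in neutrophils and under 55 CPM elsewhere, while S100a6, S100a4, S100a10 and S100a11 step up from microglia to patrolling to classical monocytes.

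Set against microglia of the same library, the members over the floor were mostly higher in the other classes. A gene was counted when it reached 10 CPM in at least 1 of the 2 groups and 20 UMIs over both, and called at 1.5-fold after subtracting the median log2 ratio of all such genes. In knockout classical monocytes 7 of the 8 members were called higher and 0 lower, beside 31.1% of all counted genes called higher. In knockout patrolling monocytes 6 were called higher (all genes: 30.8%), in border macrophages 5 (19.6%), in NK cells 7 higher and 1 lower (32.9% and 34.6%), and in neutrophils 6 (38.7%). In the wild-type library 6 were called higher in classical (34.1%), 6 in patrolling monocytes (32.9%) and 5 in border macrophages (26.5%). Members that count only through the class where they are high are favoured by the floor, so these counts describe and support nothing. The median of all genes lay 0.14 to 0.50 on the log2 scale below microglia in these comparisons and 1.39 below in knockout neutrophils. On the CPM scale itself the knockout counts were 7 higher and 1 lower in classical monocytes, 5 in patrolling monocytes, 4 in border macrophages, 7 higher and 1 lower in NK cells and 5 in neutrophils, and the wild-type counts 6, 6 and 4. In neutrophils S100a13 accounts for the difference, at 51.7 CPM against 59.5 CPM in microglia, from 5 UMIs. The share of all genes past 1.5-fold on the CPM scale was not counted here. These CPM-scale counts are therefore not read as a result about the members. On the CPM scale the steps over microglia were 194-fold for S100a4 (169 to 223) and 170.1-fold for S100a6 (159 to 182) in knockout classical monocytes, against 4.17-fold for S100a13 (3.67 to 4.74). In wild-type classical monocytes they were 1306-fold for S100a4 (986 to 1756), 1530-fold for S100a6 (1277 to 1843) and 4.57-fold for S100a13 (3.31 to 6.15), over the lower levels of S100a4 and S100a6 in wild-type microglia.

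Within the monocytes of the knockout library, the levels of 4 members followed Ly6c2, the surface antigen gene that marks classical monocytes. Knockout cells of the patrolling gate without a Ly6c2 UMI (350 cells) had 1284 CPM of S100a6, those with at least 1 (115 cells) had 1907 CPM, cells that met both monocyte gates (25 cells) had 3975 CPM, and classical monocytes 5091 CPM. S100a4 took the same order at 414, 576, 1112 and 1289 CPM, S100a10 at 138, 207, 614 and 1589 CPM, and S100a11 at 190.5, 244, 438 and 819 CPM. S100a13 did not, at 260.0, 244, 292 and 248 CPM with overlapping intervals. The median UMI counts of these cells also rose along the order, from 4751 through 6041 and 8204 to 8823, and the part of depth in which cells show a Ly6c2 UMI was not tested. In the wild-type library S100a6 stood at 743 CPM in 25 patrolling cells without Ly6c2, 1198 CPM in 6 with it, 2299 CPM in 2 cells of both gates and 3526 CPM in classical monocytes. S100a4 kept this order as well, at 340, 611, 862 and 1278 CPM. S100a10 (27.8, 73.3, 57.5 and 1053 CPM) and S100a11 (188, 342, 287 and 819 CPM) did not, with few cells in the middle groups.

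The comparison the study was built for, knockout against wild-type microglia, gave higher levels of all 8 members in the knockout library, each from a low base. Relative to the median of all genes, which itself was lower by 0.29 on the log2 scale, S100a6 differed most: 29.9 CPM in knockout and 2.31 CPM in wild-type microglia, a log2 ratio of 3.99 (3.74 to 4.26, counting error only; 12.98-fold on the CPM scale). S100a10 stood at 28.2 and 12.6 CPM (1.45, 1.32 to 1.59), S100a9 at 12.2 and 3.70 CPM (2.02, 1.78 to 2.25) and S100a13 at 59.5 and 39.4 CPM (0.89, 0.80 to 0.97). These 4 reached the floor and all were called higher, 0 lower, beside 15.1% of 8715 genes called higher and 12.5% called lower. S100a6 and S100a9 reached the floor through the knockout library alone, which favours a call of higher, and the count supports nothing. The other 4 stayed under 10 CPM in both libraries: S100a4 at 6.65 and 0.978 CPM, S100a8 at 9.68 and 3.30 CPM, S100a11 at 9.82 and 3.27 CPM, and S100a1 at 9.47 and 6.68 CPM. In all 8 the Poisson intervals of the knockout and wild-type levels did not overlap. The share of all genes without overlap was not counted, so this is not read as a result about the members. S100a1 gave the least firm difference: thinned to 1000 UMIs, 0.774% of knockout and 0.800% of wild-type microglia had a UMI of it, with overlapping intervals.

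S100a6 UMIs lay in a minority of cells in both libraries. Of 4638 knockout microglia 389 (8.39%) had an S100a6 UMI, 282 of them exactly 1 and 26 cells 10 or more, with a highest cell of 55. Of 5028 wild-type microglia 75 (1.49%) had one, 63 of them exactly 1. S100a13 was spread evenly by comparison: its top 10 cells held 3.42% of the UMIs in knockout and 2.57% in wild-type microglia, against 25.4% and 51.8% for S100a6. In wild-type microglia 102 of the 199 S100a8 UMIs and 126 of the 223 S100a9 UMIs sat in 1 cell. Without the 10 highest cells of each library S100a6 stood at 22.5 CPM in knockout and 1.12 CPM in wild-type microglia, a log2 ratio of 4.62 against 3.99 over all cells, and the ratios were 2.59 for S100a8 and 2.92 for S100a9.

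RNA of other cell types differed between the microglia of the 2 libraries as well. Summed markers of patrolling monocytes (6 of 6 detected in both libraries) came to 113 CPM in knockout and 51.8 CPM in wild-type microglia, of classical monocytes (6 of 6) to 50.4 and 14.0 CPM, of border macrophages (7 of 7) to 62.3 and 31.1 CPM, and of NK cells to 19.99 CPM (6 of 6) and 0.448 CPM (3 of 6, with Ncr1, Nkg7 and Klra8 at 0). Erythroid genes (5 of 5 in both) summed to 678 and 87.6 CPM, and choroid plexus genes to 81.4 CPM (4 of 4) and 1.19 CPM (3 of 4, with Kl at 0). Some lists were lower in knockout microglia: astrocyte markers (4 of 4 in both) summed to 153 and 195 CPM, oligodendrocyte markers (4 of 4) to 19.7 and 27.6 CPM, and endothelial markers to 22.4 CPM (2 of 4, with Cldn5 and Ly6c1 at 0) and 28.2 CPM (4 of 4). The neutrophil list was lower as well, at 199 CPM in knockout and 342 CPM in wild-type microglia (8 of 8 detected in both), nearly all of it Csf3r (196 and 340.5 CPM), while Retnlg stood at 1.19 and 0.133 CPM. The part of such RNA in the S100 levels was not tested.

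The S100 genes were therefore read again in microglia without any UMI of the other gates' markers, 3406 knockout and 3810 wild-type cells. There S100a6 stood at 10.4 CPM in knockout and 1.55 CPM in wild-type cells, and the log2 ratio relative to the median was 3.02. S100a4 stood at 2.90 and 0.912 CPM (1.95), S100a8 at 7.18 and 1.44 CPM (2.60) and S100a10 at 20.3 and 12.4 CPM (0.99). S100a13 stood at 56.8 and 38.9 CPM (0.83). In the microglia with at least 1 such UMI, 1232 knockout and 1218 wild-type cells, S100a6 was 60.3 and 3.44 CPM and S100a13 63.7 and 40.2 CPM. The S100a6 level of knockout microglia was thus higher where another class's marker was also seen. Where none was, S100a11 stood at 6.38 CPM in knockout and 2.65 CPM in wild-type cells, and S100a1 at 8.30 and 6.83 CPM. The ratios of S100a6, S100a4, S100a10, S100a11, S100a13 and S100a1 were smaller there than over all microglia. Those of S100a8 and S100a9 were larger, and all 8 kept their direction. Among microglia of 5000 to 10000 UMIs, a range set to even out depth, the log2 ratio of S100a6 was 3.87 and that of S100a13 0.83.

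**Figure D3:**
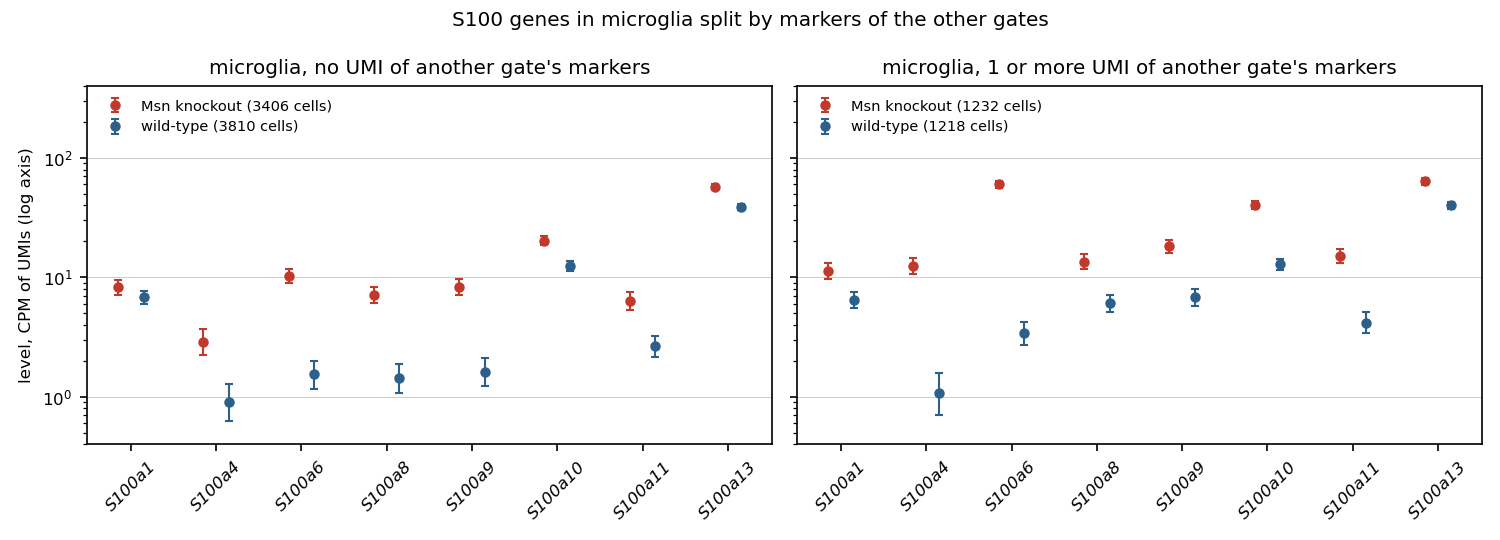
Level of each S100 gene (CPM, log axis, exact 95% Poisson intervals) in knockout (red) and wild-type (blue) microglia, split into cells without (left) and with (right) a UMI of another gate's markers. S100a6 stands at 10.4 and 1.55 CPM on the left and at 60.3 and 3.44 CPM on the right, while S100a13 stays between 38.9 and 63.7 CPM.

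In monocytes S100a6 and S100a10 were called higher in the knockout library in both classes, S100a6 by smaller ratios than in microglia. In patrolling monocytes S100a6 stood at 1470.3 CPM in knockout and 844 CPM in wild-type cells (log2 ratio relative to the median 1.03, 0.80 to 1.27), S100a10 at 159 and 37.9 CPM (2.30, 1.24 to 3.62, 7 wild-type UMIs) and S100a13 at 255 and 119 CPM (1.33, 0.72 to 2.01). Here the median of all genes was lower by 0.23 on the log2 scale. These 3 of the 6 members over the floor were called higher and 0 lower, beside 23.4% of 7294 genes called higher and 23.3% lower. S100a4 (0.43, 0.10 to 0.79) and S100a11 (0.12, −0.34 to 0.62) stayed within 1.5-fold. The wild-type class held 31 cells.

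In classical monocytes S100a6 stood at 5091 CPM in 116 knockout and 3526 CPM in 24 wild-type cells (0.62, 0.52 to 0.73), and S100a10 at 1589 and 1053 CPM (0.69, 0.50 to 0.88), both just past the 1.5-fold line of 0.58. S100a1 was called higher on 53 and 5 UMIs (1.34, 0.02 to 3.02), and S100a8 on 60 and 0 UMIs, 27 of the 60 in 1 cell, a level at least 4.46-fold higher when the wild-type class is set at 3 counts. S100a8 reached the floor through the knockout library alone and so had to be called. In all 4 members were called higher and 0 lower, beside 20.8% of 5979 genes called higher and 21.9% lower, and on the CPM scale S100a6 (0.53) was not past the line. S100a4 (0.11, −0.07 to 0.29) and S100a11 (0.09, −0.13 to 0.32) stayed within 1.5-fold over the whole of their intervals. S100a13 stood at 248 and 180.2 CPM (0.56, 0.09 to 1.05).

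Border macrophages, the macrophages of meninges and vessel walls, held few S100 UMIs. S100a6 stood at 72.7 CPM in 161 knockout and 11.4 CPM in 35 wild-type cells (2.76, 0.83 to 5.85), but 48 of its 49 knockout UMIs lay in 10 cells and the wild-type cells had 2. S100a10 stood at 51.9 and 17.1 CPM (1.69, 0.02 to 4.04) and S100a1 at 69.8 and 34.3 CPM (1.12, −0.11 to 2.63). These 3 were called higher and 0 lower, beside 21.1% of 5370 genes called higher and 23.3% lower. S100a13 was within 1.5-fold (107 and 131 CPM; −0.21, −0.90 to 0.54). S100a11, under the floor of UMIs, stood at 13.4 and 40.0 CPM (−1.49, −3.08 to 0.17).

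**Figure D4:**
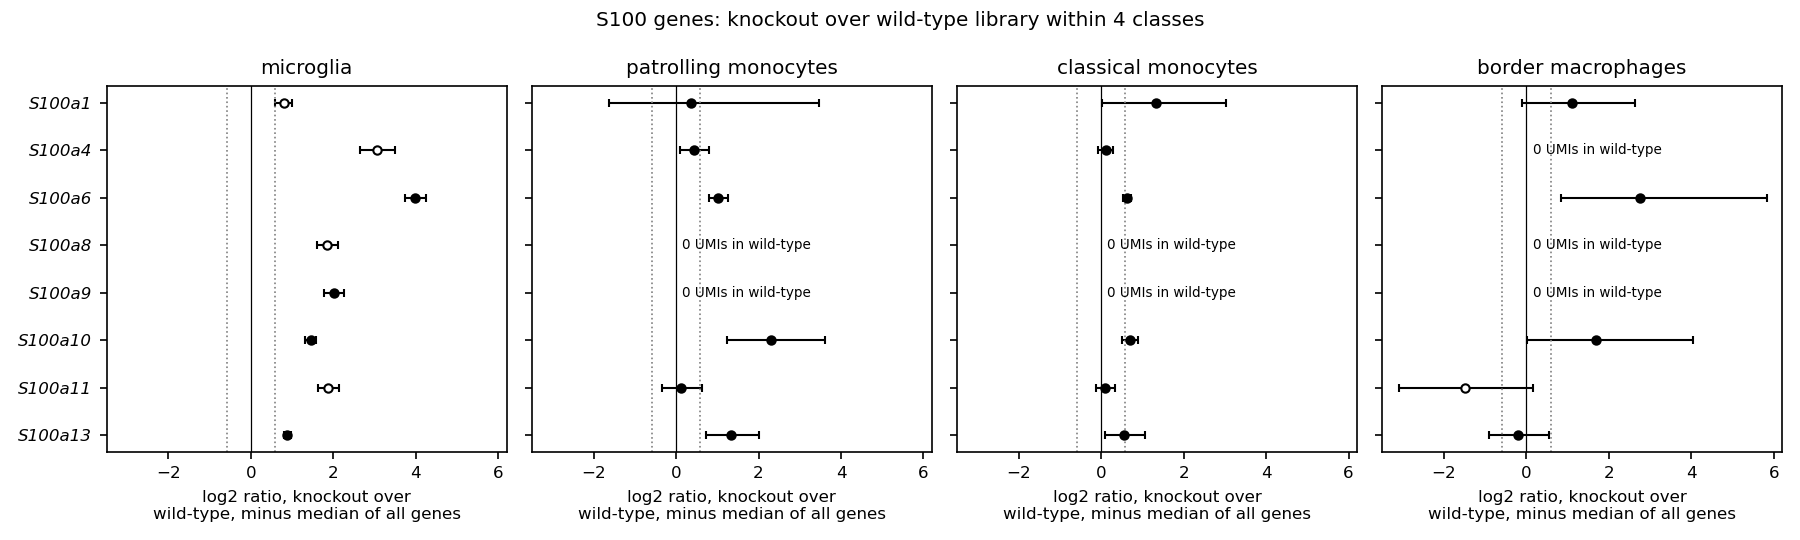
Log2 ratio of knockout over wild-type CPM for each S100 gene, minus the median of all genes over the floor, in 4 classes, with exact conditional 95% intervals for counting error. Filled points reached the floor, dotted lines mark 1.5-fold, and S100a6 lies at 3.99 in microglia, 1.03 in patrolling and 0.62 in classical monocytes.

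Genes of proteins that S100 proteins bind were mostly within 1.5-fold in microglia, and Anxa2 alone was called higher both relative to the median and on the CPM scale. Of 18 listed binding partners and receptors, 13 reached the floor there, of which 5 were called higher in the knockout library, 0 lower and 8 within, beside 15.1% of all genes called higher and 12.5% lower, with a median log2 ratio of 0.31 against 0 for all genes by construction. On the CPM scale 1 was higher and 2 lower, Myh9 (−0.63) and Tlr4 (−0.61), with a median of 0.02. On that scale 404 of all 8715 genes were higher and 2651 lower. Anxa2, the partner of S100A10, stood at 11.8 CPM in knockout and 1.14 CPM in wild-type microglia (3.66, 3.29 to 4.05), and reached the floor through the knockout library alone. Cacybp stood at 87.7 and 61.6 CPM (0.80, 0.73 to 0.87), Bsg, whose product binds S100A9, at 615 and 451 CPM (0.74), Capzb at 407 and 299 CPM (0.74) and Anxa11 at 15.1 and 12.01 CPM (0.63). Under the floor, Anxa1 stood at 3.61 and 0.182 CPM and the scavenger receptor gene Cd36 at 5.56 and 0.630 CPM. Relative to the median the receptor gene Tlr4 was within 1.5-fold: it stood at 31.7 and 48.5 CPM (−0.32, −0.42 to −0.22). Ager was at 0.407 and 1.28 CPM. Of the cargo of S100A13, Il1a stood at 158 and 196 CPM (−0.02, −0.06 to 0.03) and Fgf1 at 0.570 and 1.08 CPM. Myh9, the myosin bound by S100A4, was likewise within 1.5-fold (124 and 192 CPM; −0.33, −0.38 to −0.29).

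In monocytes Anxa1 and Anxa2 were called higher in the knockout library and the scaffold gene Ahnak was not. In classical monocytes Anxa2 stood at 1421 CPM in knockout and 762 CPM in wild-type cells (0.99, 0.77 to 1.22) and Anxa1 at 743 and 475 CPM (0.74, 0.46 to 1.03). Ahnak, a giant scaffold protein that binds the S100A10 and annexin A2 complex, stood at 513 and 1343 CPM (−1.29, −1.49 to −1.09). In patrolling monocytes Anxa2 stood at 581 and 308 CPM (1.14, 0.76 to 1.55), Anxa1 at 149 and 64.9 CPM (1.43, 0.61 to 2.39) and Ahnak at 167 and 200.1 CPM (−0.03, −0.52 to 0.49). Of the 13 listed partners over the floor in classical monocytes 4 were called higher and 2 lower, of 16 in patrolling monocytes 5 higher and 3 lower, and of 13 in border macrophages 1 higher and 1 lower. Over all genes 20.8% were called higher and 21.9% lower in classical monocytes, 23.4% and 23.3% in patrolling monocytes, and 21.1% and 23.3% in border macrophages, so these counts are not read as a result about the partners. On the CPM scale they were 4 higher and 2 lower, 3 and 3, and 1 and 2. Over all genes on that scale, 1010 were higher and 1500 lower of 5979 in classical monocytes. In patrolling monocytes 1197 were higher and 2351 lower of 7294, and in border macrophages 936 and 1427 of 5370. Myh9 was called lower in both monocyte classes, at 264 and 557 CPM in patrolling (−0.85) and 127 and 254 CPM in classical monocytes (−0.91). Of the 12 other S100-symbol rows, only S100pbp, whose product binds S100P and is not itself an S100 protein, reached the floor. It stood at 8.57 and 14.5 CPM in microglia, within 1.5-fold (−0.47).

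Likeness over classes was measured as Pearson's r of log2(CPM + 10) over the 10 class-by-library sums with 20 or more cells, among 5686 genes that reached 50 CPM in at least 1 of them. The 10 sums share 2 libraries and come from few cells in some classes, so r is a description. Among the members, S100a8 and S100a9 were most alike (r = 0.99), followed by S100a6 with S100a11 (0.95) and S100a10 with S100a13 (0.82). The r of S100a8 with S100a9 rests largely on 1 sum, the 26 knockout neutrophils. There the pair stood at 131783 and 156070 CPM, against at most 54.8 CPM in the other sums. The gene most like S100a6 was its partner Anxa2 (0.99), followed by Cdkn2d and Pstpip1. S100a9 was most like AA467197, Rdh12 and Camp, a neutrophil granule peptide, and S100a8 most like Lrg1, Gm16174 and Crispld2. S100a4 was most like Dipk1a, Tppp3 and Arf5, S100a10 most like Sub1, Mrpl30 and Tagln2, and S100a11 most like Mrpl33, Cdkn2d and Txn1. S100a13 was closest to Kcnab2, Mrpl18 and Polr2k, and S100a1 to Ntan1, Ndufaf8 and Bex3, the loosest match of the 8 (highest r 0.94).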

How the data were processed

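Raw UMI counts, whole numbers, were deposited as 1 matrix per library (10x 3′ v2). The authors made them with Cell Ranger, version 7.0.0 per the file headers and 6.0 per the labels' protocols, on GRCm39, and Seurat is named for quality control, per the submitters' processing notes. The files still hold barcodes under the authors' stated filter of 500 genes, down to 500 UMIs.

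Barcodes with 500 or more genes and at most 10% mitochondrial UMIs were kept. A class gate was 1 or more UMI of both markers: P2ry12 and Tmem119 (microglia), Ace and Treml4 (patrolling monocytes), Ly6c2 and Ccr2 (classical monocytes), Mrc1 and Pf4 (border macrophages), Ncr1 and Nkg7 (NK cells); neutrophils needed 2 UMIs of Retnlg. No doublet caller was run. Instead, cells of several non-microglial gates (198 knockout, 17 wild-type) were left out. Left out too were cells of 1 non-microglial gate whose P2ry12 and Tmem119 CPM reached the microglial median divided by 3 (1250.2 CPM knockout, 1334 CPM wild-type). Cells under that limit stayed in their class even with UMIs of both microglial markers, and doublets within a class remain. Cells of no gate numbered 1104 and 226.

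UMIs were summed per class and library to CPM, with exact 95% Poisson, conditional (ratios) and binomial (shares) intervals for counting error. Levels needed 10 cells and comparisons 20 per library. Ratios were set relative to the median of genes with 10 CPM in 1 library and 20 UMIs over both. UMIs are 3′ tags, so levels were not divided by gene length. Named genes are the members, other S100 symbols over the floor, the 18 partners, Msn, the 3 genes most like each member, and the markers. Members and lists were chosen with earlier results of these data known. Coordinates and promoters come from GENCODE on GRCm39 (54749 of 55357 identifiers matched). Scripts ran on Python 3.11.15, numpy 2.4.6, scipy 1.17.1, pandas 2.3.3 and matplotlib 3.10.9, and the ratio code was tested on simulated data. Alternatives covered cell filters, gates, depth, scaling, floors and per-cell averaging.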

Additional observations from a re-analysis of the deposited data

Results flagged for a closer look

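Barcodes that the filters removed from the knockout library still held S100 RNA. Over its 1465 removed barcodes (median 628 UMIs), S100a8 stood at 113 CPM (118 UMIs), S100a9 at 105 CPM (109 UMIs) and S100a6 at 44.2 CPM (46 UMIs). In 1 of these barcodes lay 75 of the 118 S100a8 UMIs, and for S100a9 the highest barcode held 57 of 109. The 265 removed barcodes of the wild-type library held 1 UMI of S100a8, 2 of S100a9 and 1 of S100a6. What drew attention is that these barcodes entered no comparison and that all 3 levels were above those of microglia of the same library (9.68, 12.2 and 29.9 CPM). S100a8 made up 52.0% of the UMIs of the pair there (45.3 to 58.6, exact binomial).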

How the results depend on the processing

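All values for microglia kept their sign for the 8 members in each of 17 alternatives: S100a6 lay between 3.02 and 4.66, S100a10 between 0.99 and 1.59 and S100a13 between 0.59 and 1.02, while S100a1 lay between 0.13 and 0.93 and was past 1.5-fold in 12 of the 17. Counts of members called higher in knockout microglia (4) became 7 with 2 or more UMIs per gate marker, 1 with a floor of 30 CPM and 8 with no floor. In patrolling monocytes 3 became 5 with 2 or more UMIs per marker. In classical monocytes 4 became 7 when microglial markers were disregarded, 1 with cells thinned to 1000 UMIs and 2 at 2000 UMIs, and the count called lower (0) became 1 at 1000 UMIs. In border macrophages 3 became 8 when microglial markers were disregarded, 0 at 1000 UMIs and 1 at 2000 UMIs, and the count called lower (0) became 1 under either thinning and 1 with no floor. The share of all genes called also depends on the setting and is not given beside these counts. They are therefore not read as a result about the members. S100a1 in border macrophages was −0.41 at 1000 UMIs, against 1.12 in all cells. Thinning leaves few UMIs in the wild-type classes of 24 to 35 cells; for the other changes the cause was not tested. Of 382 alternative log2 ratios, 299 moved by less than their counting interval. On the CPM scale 13.2% of the genes called in microglia were higher, against 54.8% relative to the median, and 33.7% in patrolling monocytes, against an even split relative to the median. The range of 5000 to 10000 UMIs and the removal of the 10 highest cells were chosen after seeing the data, and that removal takes 10 of 24 to 35 wild-type cells outside microglia. Cells free of every other marker gave no value for patrolling monocytes (163 knockout, 6 wild-type), classical monocytes (35 and 6) or border macrophages (33 and 7), nor did the 5000 to 10000 range for classical monocytes (72 and 13) and border macrophages (49 and 14). No paired analysis was possible because each genotype has 1 library. The small wild-type classes limit all but the microglial comparison.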

Other observations

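The cells that no class took held much of the S100 RNA. Of the 21359 S100a6 UMIs of kept knockout cells, 15.4% lay in cells with microglial RNA over the limit, 17.9% in cells of several gates and 8.62% in cells of no gate. Of the 1989 S100a6 UMIs of kept wild-type cells these kinds held 27.6%, 10.4% and 1.91%. Cells of no gate, with medians of 1020 and 1299 UMIs, stood at 882 CPM of S100a6 in the knockout and 89.5 CPM in the wild-type library. Of the 3319 S100a8 UMIs of kept wild-type cells, 1974 lay in 1 cell that carried microglial RNA over the limit. That cell group had S100a8 at 59.7% of the pair in the wild-type library (58.1 to 61.3) and at 47.9% in the knockout library (46.9 to 49.0). Of its 2210 wild-type S100a8 UMIs, 2202 lay in 3 cells of the neutrophil gate, as did 1486 of its 1494 S100a9 UMIs.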
